A study of Homo sapiens with 9 samples.

Results

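The BCL2 family comprises the proteins that decide, at the outer membrane of the mitochondrion, whether a cell starts apoptosis. The members described here are 10 genes, and they were followed through every probe set (a group of short probes read as 1 value) that the array's annotation maps to a single symbol among BCL2, BCL2L1, BCL2L2, MCL1, BCL2A1, BAX, BAK1, BBC3, PMAIP1 and BCL2L11. The rule gave 29 probe sets of the 54613 that are not array controls, for 9 of the 10 genes. There were 6 probe sets for MCL1, 7 for BCL2L11, 4 each for BCL2 and BCL2L1, 2 each for BCL2L2, BAX and PMAIP1, and 1 each for BCL2A1 and BAK1. BBC3 had none under the rule, because its probe set is also mapped to 2 microRNA genes.

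The cells were MDA-MB-231, an established line from a triple-negative human breast carcinoma. They were reverse transfected with Lipofectamine at 600000 cells per well, and each small RNA was given at 10 nM. The control group received AllStar, a negative control RNA, and the other groups received Qmimic or Dmimic. Total RNA was taken 48 h later. Each group had 3 samples, which the labels call biological replicates, and each sample was measured on 1 Affymetrix HG-U133 Plus 2.0 array. All 9 arrays thus hold transfected cells of 1 line at 1 dose and 1 time. The series title names miR-34a as the microRNA under study, and the labels do not say what Q and D stand for. Nothing in the labels says whether the 3 samples of a group came from separate cultures, so the p-values measure the spread between these samples.

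Pro-survival proteins (BCL2, BCL2L1 or BCL-XL, BCL2L2 or BCL-W, MCL1 and BCL2A1) hold the other members in check by binding their BH3 segment. The effectors BAX and BAK1 form pores in the outer mitochondrial membrane once they are released, and cytochrome c leaves through them and sets off the caspases. BH3-only proteins, here BBC3 (PUMA), PMAIP1 (NOXA) and BCL2L11 (BIM), carry stress signals to the other classes. The microRNA miR-34a is induced by p53, and BCL2 is among the targets reported for it in other work.

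A microRNA selects its targets mainly through bases 2 to 8, the seed. The deposited labels hold no sequence for Qmimic or Dmimic, so the natural microRNA of the title is shown, with others in the table used that have the same seed and a close relative that has another one. The seed is in capitals, the sequences are from RefSeq on GRCh38.p14, and hsa-miR-34a-5p lies at chr1:9151735-9151756 on the minus strand.
hsa-miR-34a-5p: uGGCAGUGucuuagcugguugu
hsa-miR-449a: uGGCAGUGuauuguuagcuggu
hsa-miR-449b-5p: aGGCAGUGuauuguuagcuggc
hsa-miR-34b-5p: uAGGCAGUgucauuagcugauug
Of 2370 mature human microRNAs in that table, which is not complete, 3 carried this seed. The relative hsa-miR-34c-5p was not analysed here. In hsa-miR-34b-5p the letters GGCAGU of the seed start 1 base further from the 5′ end, so its bases 2 to 8 differ.

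The start regions of the effectors BAX and BAK1 are shown as background. They were picked with the array values known, and neither gene was called. No link between these letters and the array values was tested. RefSeq promoter windows of 300 bases, most of them ahead of the transcription start, were found for 8 of the 10 genes. Capitals mark CACGTG (the E-box, bound by MYC and related factors) in BAX, at chr19:48954625-48954924 on the plus strand, and CCAAT, read on either strand, in BAK1, at chr6:33580227-33580526 on the minus strand.
BAX: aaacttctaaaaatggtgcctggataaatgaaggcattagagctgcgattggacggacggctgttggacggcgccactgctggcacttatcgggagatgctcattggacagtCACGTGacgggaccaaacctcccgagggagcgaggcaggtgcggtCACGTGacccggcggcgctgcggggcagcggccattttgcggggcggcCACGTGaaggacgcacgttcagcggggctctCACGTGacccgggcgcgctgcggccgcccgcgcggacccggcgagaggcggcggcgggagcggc
BAK1: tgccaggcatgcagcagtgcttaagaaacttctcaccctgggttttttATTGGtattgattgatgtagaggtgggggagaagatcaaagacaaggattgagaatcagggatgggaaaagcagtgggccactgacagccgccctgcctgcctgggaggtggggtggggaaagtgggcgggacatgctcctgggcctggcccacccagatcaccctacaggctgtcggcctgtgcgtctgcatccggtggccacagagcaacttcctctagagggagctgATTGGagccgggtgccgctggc
The BAX window held 4 E-boxes, and 7.23% of all 34943 promoter windows held at least 1, while 4 or more were found in 5 of them. The BAK1 window held 0 E-boxes. Both windows held 2 CCAAT motifs, which are left in lower case in BAX and occur in 34.6% of all windows, and 2 GC boxes (GGGCGG, on either strand), which occur in 44.9%. The BAX window had 38 CpG dinucleotides and the BAK1 window 7, against a median of 14 over all windows. These are descriptions of letters, and no binding was measured.

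The values are log2 signals from RMA, a method that corrects, normalises and summarises the probes of each probe set, so a difference of 1 is a 2-fold change. They can be compared between arrays for 1 probe set, and not between probe sets. AllStar replicate 3 stood apart. Over all probe sets the other 8 arrays correlated at 0.993 to 0.998 with each other, and AllStar replicate 3 at 0.974 to 0.981 with them. Its interquartile range was 2.99, against 3.41 to 3.53, and its 18S ribosomal RNA probe sets averaged 8.73, against 5.27 to 6.26. The part of RNA quality in the results was not tested. Each fit was therefore run with all 9 arrays and again without AllStar replicate 3, which leaves 2 control arrays. The line's markers VIM, CD44 and TGFBI averaged 11.81 to 12.06 in AllStar, 12.09 to 12.22 in Qmimic and 12.13 to 12.29 in Dmimic. The 6 luminal epithelium markers, all measured, averaged 6.42 to 6.56 in AllStar, 6.42 to 6.52 in Qmimic and 6.50 to 6.56 in Dmimic. Within that list CDH1 lay between 3.44 and 4.02 and KRT19 between 11.56 and 12.36. The 4 measured leukocyte markers averaged 4.68 to 5.03 over all arrays.

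AllStar replicate 3 was at an extreme for most of the family. It lay below all other arrays for 16 of the 29 probe sets and above them for 9, where over all probe sets it lay below for 33.9% and above for 37.4%. Over all probe sets its median shift from the mean of AllStar replicates 1 and 2 changed with the signal level. It was 0.21 at levels of 4 to 6 and -0.45 at 8 to 10. For each member the shift was set against the 1001 probe sets nearest in level. It was inside their 5% to 95% range, which holds most probe sets by definition, for 23 of the 29. The largest upward shifts in the family were on MCL1 214057_at, at 1.36, and BCL2L1 231228_at, at 1.25, both on the log2 scale. Both lay above that range. The largest downward shifts were on BCL2L11 1558143_a_at, at -0.94 and inside its range, and BCL2 203685_at, at -0.89 and below its range. The probe sets nearest to BCL2 203685_at in level had a median shift of 0.15. Leaving AllStar replicate 3 out turned the sign of the change for 12 of the 29 probe sets with Qmimic and for 11 with Dmimic. Those signs thus rest on 1 array.

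**Figure D1:**
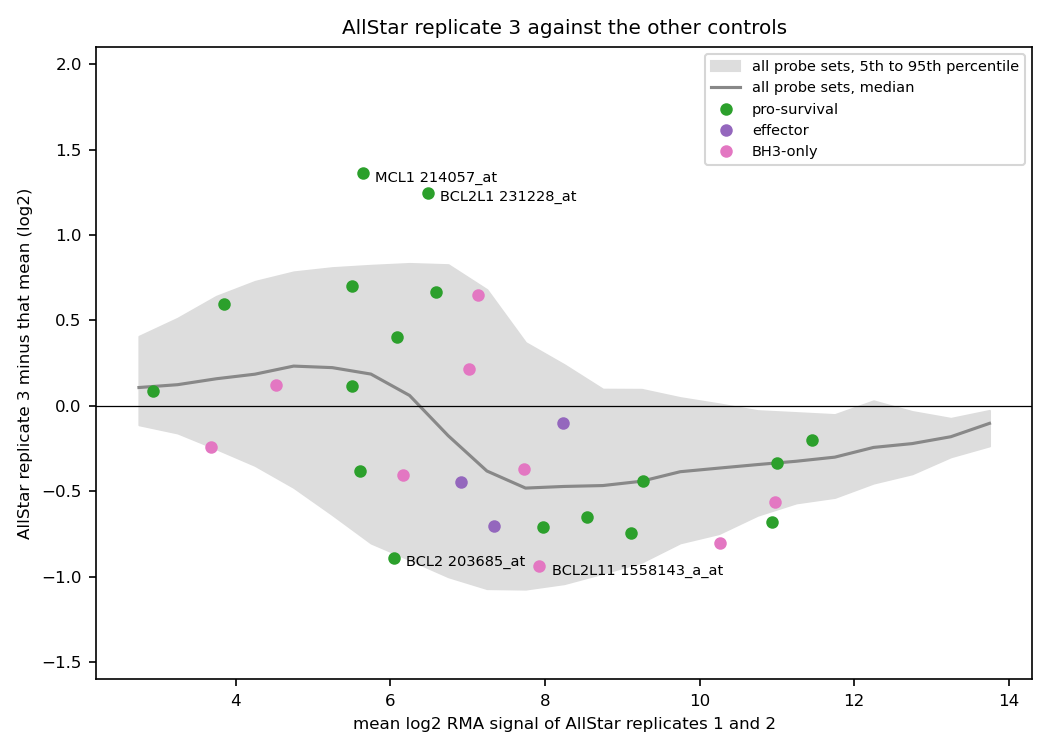
Shift of AllStar replicate 3 from the mean of AllStar replicates 1 and 2 (log2, vertical axis) against that mean (log2, horizontal axis), for the 29 family probe sets over the band of all probe sets. Of the 29, 23 fall within the 5% to 95% range of probe sets near them in level.

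Very little of the family moved past the threshold. To be called, a probe set had to change by at least 1.5-fold with an adjusted p under 0.05 (limma, Benjamini-Hochberg over all 54613 probe sets). With all 9 arrays, 0 of the 29 were called with Qmimic (0% of all probe sets), 0 with Dmimic (0.00549% of all) and 0 with both mimics as 1 group against AllStar (0.0806% of all). At an unadjusted p under 0.05 in limma, 3 of the 29 passed with Qmimic (16.3% of all probe sets passed), 6 with Dmimic (12.8% of all) and 7 with both together (19.2% of all). Without AllStar replicate 3, BCL2 203685_at alone was called, lower with Dmimic (0.864% of all probe sets were called) and lower with both together (0.721% of all), and 0 were called with Qmimic (0.54% of all). In that fit 10 of the 29 had an unadjusted p under 0.05 with Qmimic (18.2% of all), 10 with Dmimic (17.1% of all) and 10 with both together (19.1% of all). The 3 arrays of a mimic did not overlap the 3 AllStar arrays for 7 of the 29 probe sets with Qmimic (24.8% of all) and for 5 with Dmimic (18.9% of all). Against AllStar replicates 1 and 2 alone, the groups did not overlap for 16 of the 29 with Qmimic (37.9% of all) and for 12 with Dmimic (33.5% of all). The Qmimic and Dmimic comparisons use the same AllStar arrays, so their results are not independent of each other.

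The family's middle was near 0. The median change of the 29 probe sets was 0.00 with Qmimic and 0.07 with Dmimic on the log2 scale, where all probe sets had medians of -0.03 and -0.03. Without AllStar replicate 3 the family medians were -0.03 and 0.01, and those of all probe sets -0.01 and 0.00. The arrays also bound what could have been missed. Without AllStar replicate 3 the 95% interval of the change lay wholly inside 1.5-fold for 27 of the 29 probe sets with Qmimic (94.1% of all probe sets) and for 27 with Dmimic (93.8% of all). With all 9 arrays it did so for 18 and 17, where 74.9% and 77.8% of all probe sets did.

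**Figure D2:**
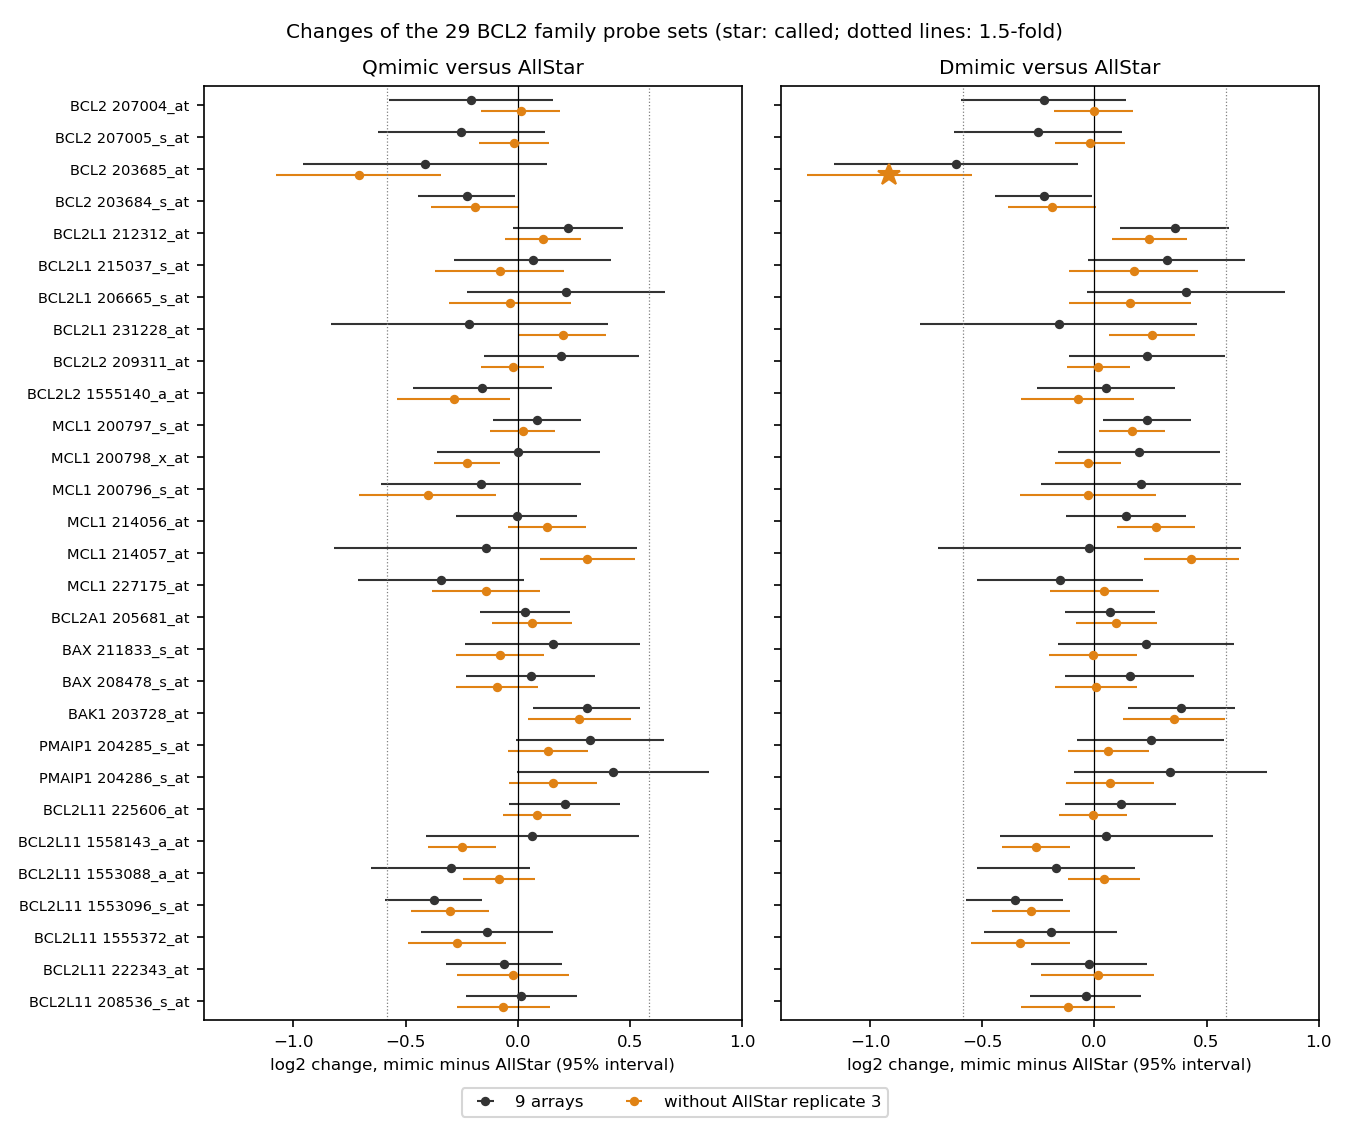
Log2 change of each of the 29 probe sets with its 95% interval, for Qmimic (left) and Dmimic (right) against AllStar, with all 9 arrays and without AllStar replicate 3. Dotted lines mark 1.5-fold, and BCL2 203685_at with Dmimic is the probe set called without AllStar replicate 3.

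Among the pro-survival genes, BCL2 gave the largest change, on 1 of its 4 probe sets. BCL2 203685_at measured 5.95, 6.14 and 5.16 in AllStar replicates 1, 2 and 3. It measured 5.02, 5.53 and 5.47 in the Qmimic arrays and 5.23, 5.32 and 4.85 in the Dmimic arrays. AllStar replicates 1 and 2 were the highest of the 9, and AllStar replicate 3 lay among the mimic arrays, so the groups overlapped.

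The log2 change on BCL2 203685_at with all 9 arrays was -0.41 (SE 0.25, adjusted p 0.380 in limma) with Qmimic and -0.62 (SE 0.25, adjusted p 0.338) with Dmimic, and neither passed. It fell with Dmimic once AllStar replicate 3 was left out, by 0.91 on the log2 scale (SE 0.17, 95% interval -1.28 to -0.55, adjusted p 0.0268 in limma), a 1.89-fold lower level. With Qmimic the change was then -0.71 (SE 0.17, adjusted p 0.0628), which did not pass. The Dmimic change had the same sign in all 27 alternatives and ran from -1.01 to -0.42. The call was lost in 3 of the alternatives that leave out AllStar replicate 3. With a replicate block added the change was -0.88 (adjusted p 0.0830 in limma). With AllStar replicate 1 also left out the change was -1.01 (adjusted p 0.187), and with AllStar replicate 2 also left out it was -0.82 (adjusted p 0.219), each against a single control assumed to vary like the other groups.

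The other 3 BCL2 probe sets did not show a change of that size. BCL2 203684_s_at measured 5.55, 5.46 and 5.62 in AllStar, 5.26, 5.26 and 5.44 in Qmimic and 5.45, 5.26 and 5.25 in Dmimic. All 6 mimic values lay below all 3 AllStar values, by a mean of 0.23 on the log2 scale (adjusted p 0.209 in limma). The annotation ties BCL2 207004_at and 207005_s_at to the same transcript, and 203685_at to a different one. BCL2 207004_at and 207005_s_at measured 6.63 and 5.51 in AllStar replicate 1 and 6.55 and 5.51 in replicate 2. In AllStar replicate 3 they measured 7.25 and 6.21, above every other array. With all 9 arrays their changes were -0.21 and -0.25 with Qmimic and -0.23 and -0.25 with Dmimic. Without that array their changes with Qmimic were 0.01 and -0.02, and with Dmimic 0.00 and -0.02, with 95% intervals between -0.18 and 0.19.

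BCL2L1, whose main product BCL-XL restrains BAX and BAK1, had its probe set of highest signal slightly above AllStar. BCL2L1 212312_at measured 11.01, 10.99 and 10.67 in AllStar, 11.20, 11.06 and 11.08 in Qmimic and 11.16, 11.25 and 11.33 in Dmimic. Every mimic array lay above every AllStar array, and AllStar replicate 3 was the lowest. The change was 0.22 (adjusted p 0.326 in limma) with Qmimic and 0.36 (adjusted p 0.242) with Dmimic, and 0.11 (adjusted p 0.473) and 0.25 (adjusted p 0.121) without AllStar replicate 3. It was positive in all 28 alternatives for each mimic, a sign that leaving out arrays could not turn, as the groups did not overlap. It was not called in either fit. Its unadjusted p with Dmimic was 0.00863 with all 9 arrays and 0.00852 without AllStar replicate 3 in limma. BCL2L1 215037_s_at and 206665_s_at differed, over all 9 arrays, by 0.07 and 0.22 with Qmimic and by 0.32 and 0.41 with Dmimic. They differed by -0.08 and -0.03 with Qmimic and by 0.18 and 0.16 with Dmimic without AllStar replicate 3. On 231228_at AllStar replicate 3 measured 7.73, and the other 8 arrays lay between 6.47 and 6.78. The changes there were -0.22 with Qmimic and -0.16 with Dmimic over all 9 arrays, and 0.20 and 0.26 without AllStar replicate 3.

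BCL2L2 (BCL-W) lay between 8.51 and 8.60 on 209311_at in the 8 arrays other than AllStar replicate 3. Its values were 8.53 and 8.57 in AllStar replicates 1 and 2, 7.90 in replicate 3, 8.55, 8.51 and 8.53 in Qmimic, and 8.58, 8.60 and 8.52 in Dmimic. The changes with all 9 arrays were 0.20 with Qmimic and 0.23 with Dmimic. The 95% interval of the change without AllStar replicate 3 was -0.16 to 0.12 with Qmimic and -0.12 to 0.16 with Dmimic. On BCL2L2 1555140_a_at the Qmimic arrays measured 5.38, 5.34 and 5.23 and the Dmimic arrays 5.68, 5.38 and 5.51, against 5.77, 5.44 and 5.22 in AllStar. The Qmimic change there was -0.16 (adjusted p 0.517 in limma) and, without AllStar replicate 3, -0.29 (adjusted p 0.215).

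**Figure D3:**
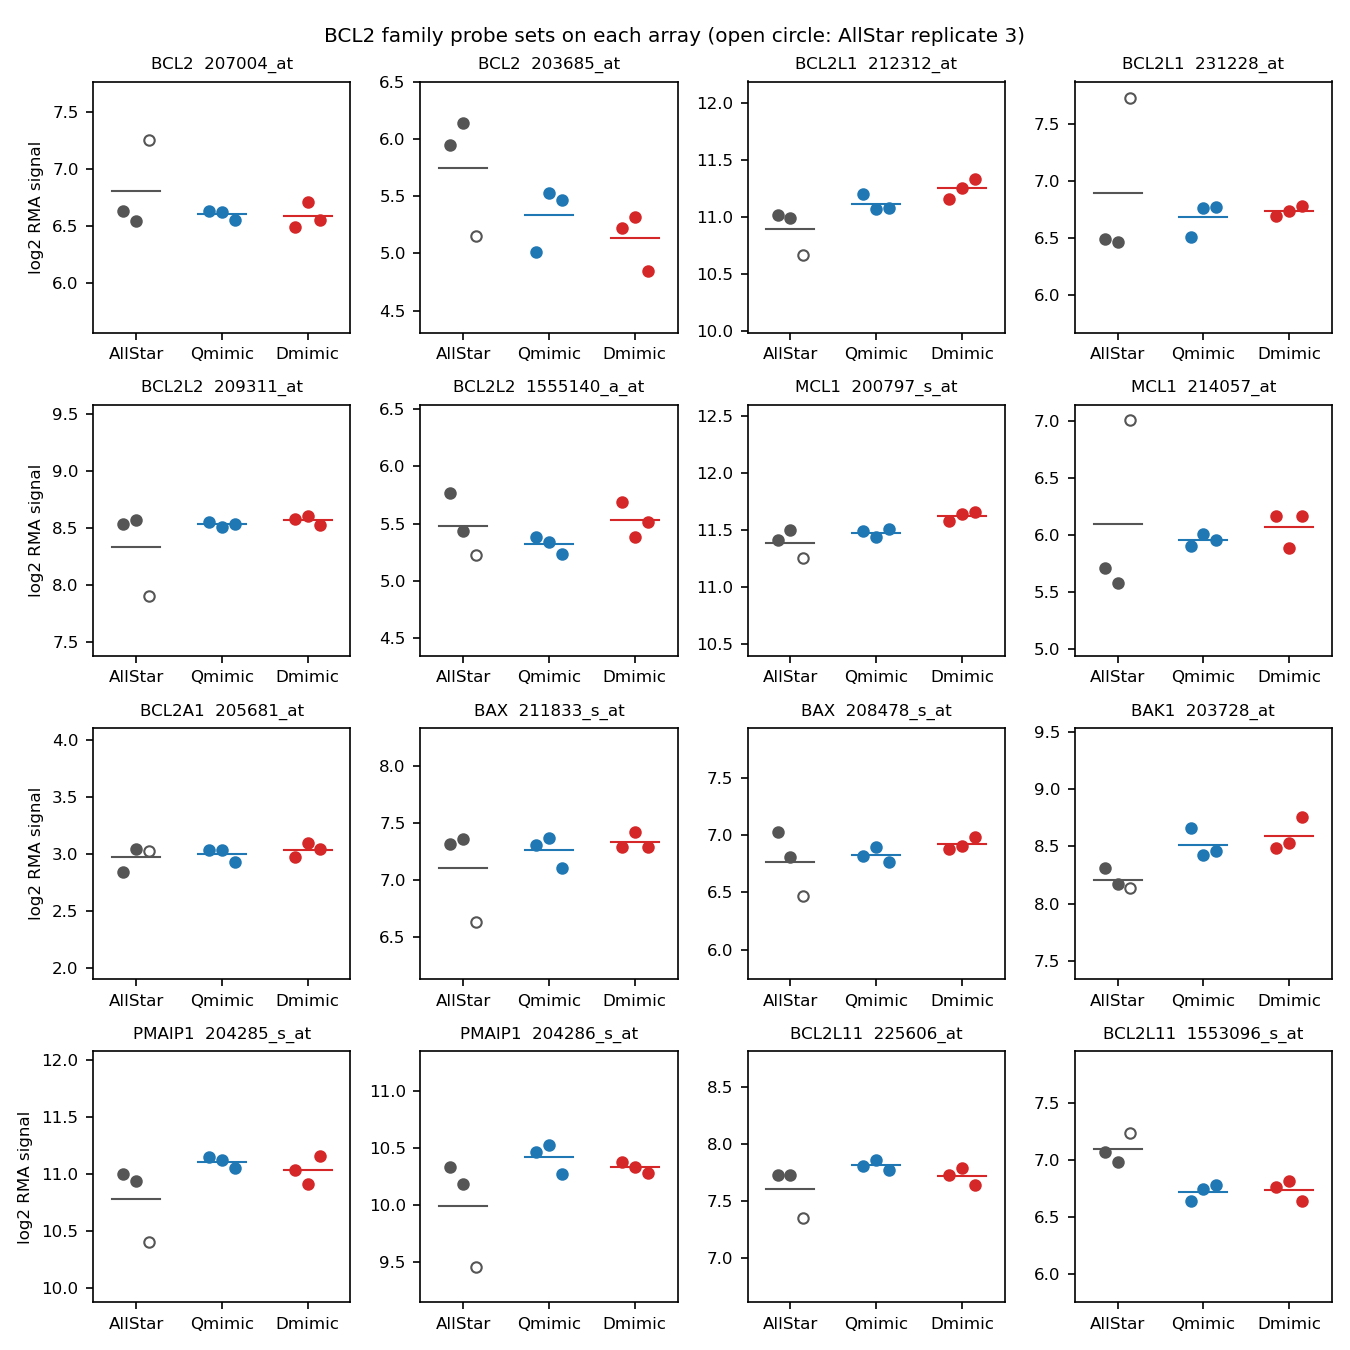
Log2 signal (vertical axis) on each of the 9 arrays, by group, for each gene's probe set of highest mean and its probe set of smallest p for both mimics without AllStar replicate 3. Points are arrays, bars are group means and the open circle is AllStar replicate 3. On BCL2 203685_at AllStar replicates 1 and 2 stand above the other arrays, and on BAK1 203728_at all mimic arrays stand above all AllStar arrays.

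MCL1, a short-lived pro-survival protein that binds BAK1 and BIM, was covered by 6 probe sets that did not move as one. MCL1 200797_s_at measured 11.41, 11.50 and 11.26 in AllStar, 11.49, 11.44 and 11.51 in Qmimic and 11.58, 11.64 and 11.66 in Dmimic. All Dmimic arrays lay above all AllStar arrays, by 0.23 (adjusted p 0.317 in limma), and the Qmimic arrays overlapped AllStar. The changes without AllStar replicate 3 were 0.02 with Qmimic and 0.17 with Dmimic. On MCL1 227175_at they were -0.14 and 0.04, and -0.34 and -0.15 with all 9 arrays. The mean signal of 227175_at was low, at percentile 21.4 of all probe sets, which limits what its changes can show. MCL1 200796_s_at measured 8.15, 7.80 and 7.27 in AllStar, 7.57, 7.62 and 7.53 in Qmimic and 8.22, 7.73 and 7.88 in Dmimic. Its Qmimic change was -0.16 (adjusted p 0.639) and, without AllStar replicate 3, -0.40 (SE 0.14, adjusted p 0.160). MCL1 200798_x_at changed by 0.003 with Qmimic and 0.20 with Dmimic over all 9 arrays. Without AllStar replicate 3 its changes were -0.22 (adjusted p 0.114 in limma) and -0.03. MCL1 214056_at changed by -0.004 with Qmimic and 0.14 with Dmimic over all 9 arrays. Leaving out AllStar replicate 3 gave 0.13 and 0.27 (adjusted p 0.0957 in limma) there.

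MCL1 214057_at depended on AllStar replicate 3 more than any other member. It measured 5.71 and 5.58 in AllStar replicates 1 and 2 and 7.0 in replicate 3, and the mimic arrays lay between 5.88 and 6.17. The Dmimic change was -0.02 with all 9 arrays (adjusted p 0.975 in limma). Once that array was left out it was 0.43 (SE 0.10, adjusted p 0.0468), which passed on adjusted p and missed the 1.5-fold threshold, where 2.31% of all probe sets passed on adjusted p. Its sign was negative in 14 of 28 alternatives and positive in the other 14.

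Between the mimics, 14 of the 17 pro-survival probe sets had a lower mean in Qmimic than in Dmimic, and 0 of them were called. The share of all probe sets with a lower mean in Qmimic is not given here. The median difference was -0.13 for the 17 and -0.01 over all probe sets. All 4 BCL2L1 probe sets were among the 14, with differences of -0.06 to -0.25 on the log2 scale. All 6 MCL1 probe sets were among them too, so the 14 rest mostly on probe sets that share a gene. On 4 of the 6 MCL1 probe sets all Qmimic arrays lay below all Dmimic arrays: 200797_s_at, 200798_x_at, 200796_s_at and 214056_at. The differences, Qmimic minus Dmimic, were -0.15, -0.20, -0.37 and -0.14 on the log2 scale. On MCL1 200798_x_at the values were 10.70, 10.73 and 10.73 in Qmimic and 10.99, 10.87 and 10.89 in Dmimic. On MCL1 214056_at they were 6.15, 6.22 and 6.28 in Qmimic and 6.45, 6.28 and 6.35 in Dmimic.

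None of these MCL1 differences passed the test. Over the family, 0 of 29 probe sets were called between the mimics with all 9 arrays (0% of all probe sets) and 0 without AllStar replicate 3 (0.0806% of all). At an unadjusted p under 0.05 in limma there were 0 with all 9 arrays (2.41% of all) and 3 without AllStar replicate 3 (11.1% of all), all 3 on MCL1. The adjusted p of those 3 in limma was 0.274 for 200798_x_at, 0.308 for 200796_s_at and 0.400 for 200797_s_at. Groups that did not overlap were found for 6 of the 29, all with Qmimic lower, where 8.95% of all probe sets did so in that direction. The 6 MCL1 probe sets share 1 gene and the same RNA, so they are not separate observations of the mimics.

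BCL2A1, a pro-survival member best known in blood cells, was at the bottom of the scale. BCL2A1 205681_at measured 2.84, 3.04 and 3.03 in AllStar, 3.04, 3.04 and 2.93 in Qmimic and 2.97, 3.10 and 3.04 in Dmimic, and its mean lay at percentile 3.48 of all probe sets. The groups overlapped, and a signal this low cannot show a decrease.

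**Figure D4:**
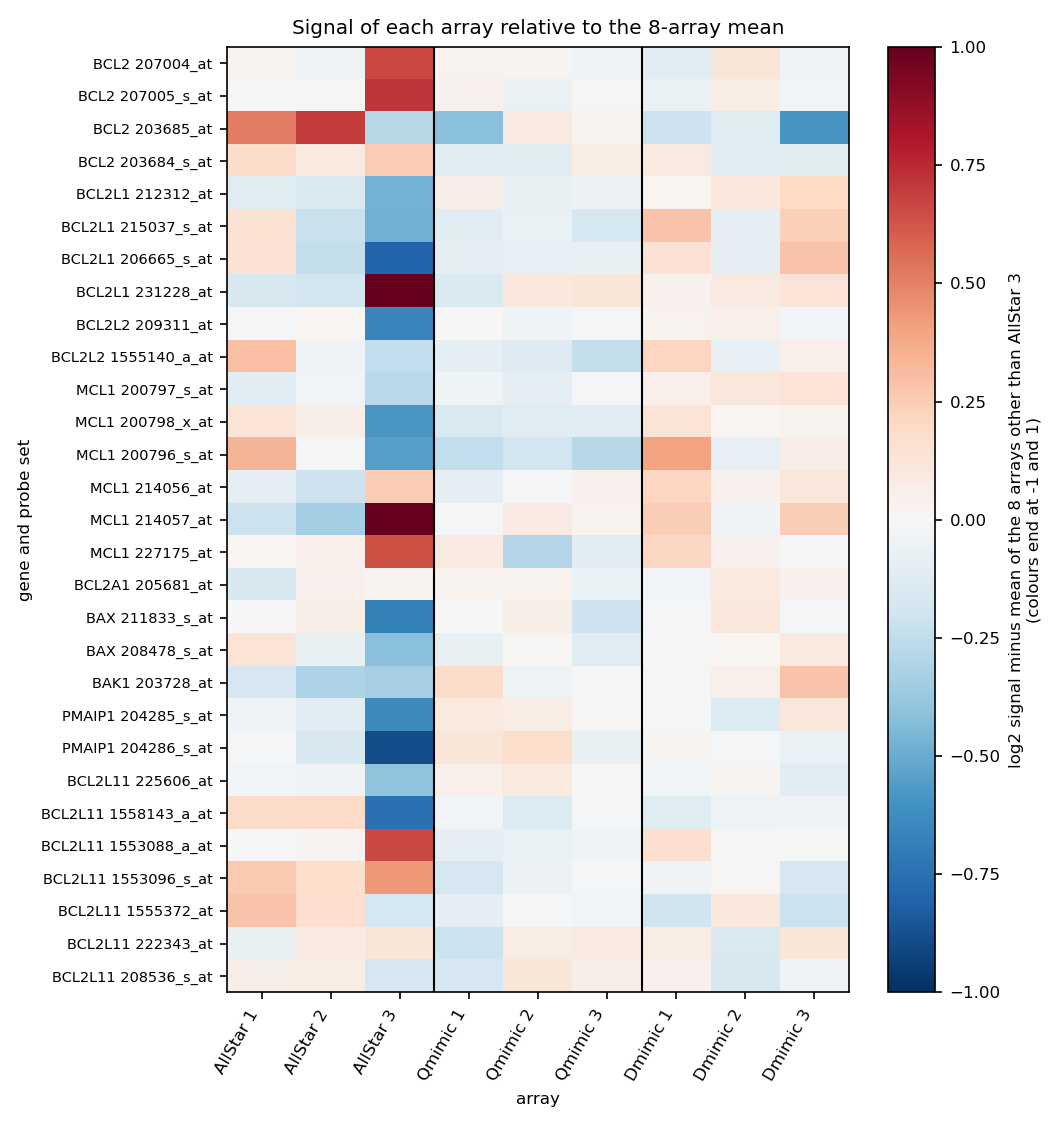
Signal of each family probe set in each array, as the difference from that probe set's mean over the 8 arrays other than AllStar replicate 3 (log2, colour), with arrays in columns and probe sets in rows by role. The column of AllStar replicate 3 lies below all others on 16 of the 29 rows and above them on 9.

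Among the effectors, BAK1 had higher values with both mimics and was called in neither fit. BAK1 203728_at measured 8.31, 8.17 and 8.14 in AllStar, 8.66, 8.42 and 8.46 in Qmimic and 8.49, 8.53 and 8.76 in Dmimic. Every mimic array lay above every AllStar array, and AllStar replicate 3 was close to replicate 2. Groups in which all 6 mimic arrays lay above all 3 AllStar arrays were found for 2 of the 29 family probe sets, BAK1 203728_at and BCL2L1 212312_at, and for 8.33% of all probe sets. The change on BAK1 was 0.31 (SE 0.11, adjusted p 0.247 in limma) with Qmimic and 0.39 (SE 0.11, adjusted p 0.202) with Dmimic. It was 0.28 (adjusted p 0.191) and 0.35 (adjusted p 0.103) without AllStar replicate 3. It was positive in all 28 alternatives for each mimic, a sign that leaving out arrays could not turn, as the groups did not overlap. At 1.24-fold and 1.31-fold the change was below the 1.5-fold threshold. With both mimics together it was 0.35 (95% interval 0.14 to 0.55, adjusted p 0.124).

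BAX, the other effector, showed no change that outlasted the removal of AllStar replicate 3. BAX 211833_s_at measured 7.31, 7.36 and 6.63 in AllStar, 7.31, 7.37 and 7.10 in Qmimic and 7.29, 7.42 and 7.29 in Dmimic. The low AllStar value was replicate 3, and the other 8 arrays lay between 7.10 and 7.42. BAX 208478_s_at measured 7.03, 6.81 and 6.47 in AllStar, 6.82, 6.90 and 6.76 in Qmimic and 6.88, 6.91 and 6.99 in Dmimic. The changes were, over all 9 arrays, 0.16 and 0.06 with Qmimic and 0.23 and 0.16 with Dmimic. They were, without AllStar replicate 3, -0.08 and -0.09 with Qmimic and -0.01 and 0.01 with Dmimic, with 95% intervals from -0.27 to 0.19 over both probe sets and both mimics.

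Among the BH3-only genes, BCL2L11 (BIM) had 1 probe set that was lower with both mimics on every array. BCL2L11 1553096_s_at measured 7.07, 6.98 and 7.24 in AllStar, 6.64, 6.75 and 6.78 in Qmimic and 6.77, 6.81 and 6.64 in Dmimic. All 6 mimic arrays lay below all 3 AllStar arrays, as was so for 2 of the 29 probe sets, this one and BCL2 203684_s_at, and for 3.83% of all probe sets. The change was -0.37 (SE 0.10, adjusted p 0.189 in limma) with Qmimic and -0.36 (SE 0.10, adjusted p 0.195) with Dmimic. Leaving out AllStar replicate 3 gave -0.30 (adjusted p 0.0806) and -0.28 (adjusted p 0.0879), and with both mimics together -0.29 (adjusted p 0.0527). It was negative in all 28 alternatives for each mimic, a sign that leaving out arrays could not turn, as the groups did not overlap. It was called in none of the settings run.

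The other BCL2L11 probe sets gave mixed values. BCL2L11 1558143_a_at measured 7.92 and 7.93 in AllStar replicates 1 and 2, 6.99 in replicate 3, 7.71, 7.60 and 7.73 in Qmimic and 7.61, 7.68 and 7.70 in Dmimic. The mimics lay, without AllStar replicate 3, lower by 0.25 and 0.26 on the log2 scale (adjusted p 0.0964 and 0.0766 in limma), and with it the changes were 0.07 and 0.05. BCL2L11 1555372_at measured 6.22, 6.10 and 5.76 in AllStar, 5.84, 5.93 and 5.91 in Qmimic and 5.74, 6.04 and 5.72 in Dmimic. Its changes were -0.14 with Qmimic and -0.20 with Dmimic over all 9 arrays, and -0.27 and -0.33 without AllStar replicate 3. BCL2L11 225606_at, 222343_at and 208536_s_at had differences from AllStar between -0.12 and 0.08 without AllStar replicate 3 and between -0.06 and 0.21 with it. The mean signals of 222343_at and 208536_s_at were low, at percentiles 33.7 and 15.8 of all probe sets, which limits what their changes can show. On 1553088_a_at AllStar replicate 3 measured 7.78 and the other 8 arrays 7.02 to 7.29, with changes of -0.30 with Qmimic and -0.17 with Dmimic over all 9 arrays and of -0.08 and 0.05 without it.

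PMAIP1 (NOXA), which binds MCL1, had mimic means above the AllStar mean with all 9 arrays and close to it without AllStar replicate 3. PMAIP1 204286_s_at measured 10.34, 10.19 and 9.46 in AllStar, 10.46, 10.52 and 10.27 in Qmimic and 10.38, 10.34 and 10.28 in Dmimic. PMAIP1 204285_s_at measured 11.01, 10.94 and 10.41 in AllStar, 11.15, 11.12 and 11.06 in Qmimic and 11.03, 10.91 and 11.16 in Dmimic. The lowest value on both was AllStar replicate 3. The changes on 204286_s_at and 204285_s_at were 0.43 and 0.32 with Qmimic (adjusted p 0.309 and 0.310 in limma) and 0.34 and 0.25 with Dmimic (adjusted p 0.470 and 0.481). Without that array they were 0.16 and 0.14 with Qmimic and 0.07 and 0.06 with Dmimic.

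BBC3 (PUMA), a target of p53, could be read only on a probe set that is also mapped to MIR3190 and MIR3191, so its values are not assigned to the gene. That probe set, 211692_s_at, measured 7.40, 7.33 and 8.32 in AllStar, 7.52, 7.43 and 7.43 in Qmimic and 7.52, 7.53 and 7.58 in Dmimic. The high value was AllStar replicate 3. The changes with all 9 arrays were -0.22 with Qmimic and -0.14 with Dmimic. Leaving out that array gave 0.10 with Qmimic and 0.18 with Dmimic (adjusted p 0.493 and 0.199 in limma).

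Genes that act around the family gave few calls. Of 16 other BCL2 family proteins, all 16 measured, 0 were called in either fit and any comparison, where at most 0.864% of all probe sets were. Their median change without AllStar replicate 3 was 0.07 with Qmimic and 0.06 with Dmimic, beside -0.01 and 0.01 over all genes. With both mimics together the members of smallest adjusted p were BNIP3L, a mitophagy receptor, at 0.14 (adjusted p 0.244 in limma), BNIP2 at 0.13 (adjusted p 0.288) and BAD, a BH3-only protein, at 0.13 (adjusted p 0.312).

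Of 14 genes of the caspase step after mitochondrial release, 12 were measured and 0 were called in either fit (at most 0.864% of all probe sets). ENDOG, a mitochondrial nuclease, measured 7.97, 7.90 and 8.04 in AllStar, 8.37, 8.29 and 8.21 in Qmimic and 8.24, 8.33 and 8.58 in Dmimic. All 6 mimic values lay above AllStar, by 0.37 (adjusted p 0.110 in limma) with both mimics together and by 0.40 (adjusted p 0.0427) without AllStar replicate 3, a 1.32-fold difference under the threshold. APAF1, which cytochrome c binds to build the apoptosome, differed by 0.67 (adjusted p 0.173) and by 0.30 (adjusted p 0.0625) without that array. DNM1L, which divides mitochondria, differed by -0.23 (adjusted p 0.306) and by -0.35 (adjusted p 0.0927).

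Of 27 regulators of the family, 24 were measured and 0 were called with all 9 arrays (at most 0.0806% of all probe sets). Without AllStar replicate 3, 1 of the 24 was called, GSK3B, the kinase that marks MCL1 for degradation. It was called with Qmimic against AllStar (0.54% of all probe sets) and against Dmimic (0.0806% of all). GSK3B 226191_at measured 8.68, 8.73 and 8.21 in AllStar, 7.75, 7.90 and 7.99 in Qmimic and 8.69, 8.75 and 8.70 in Dmimic. Every Qmimic array lay below every other array. In that fit GSK3B 226191_at fell with Qmimic by 0.82 on the log2 scale (SE 0.08, adjusted p 0.00452 in limma), and differed by 0.01 (adjusted p 0.968) with Dmimic. With all 9 arrays the Qmimic change was -0.66 (SE 0.14, adjusted p 0.155), which did not pass. Of the gene's 5 probe sets, 226191_at, 226183_at and 242336_at were called lower with Qmimic without AllStar replicate 3, and 209945_s_at and 240562_at were not. With Dmimic in that fit, 242336_at differed by -0.33 (adjusted p 0.111 in limma) and the gene's other probe sets by -0.09 to 0.09. With both mimics together 242336_at was called, at -0.62 (adjusted p 0.0112 in limma). The median of the 24 regulators in that fit was -0.03 with Qmimic and 0.01 with Dmimic, beside -0.01 and 0.01 over all genes.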

How the data were processed

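The data are log2 signals of 54675 probe sets on 9 arrays, 3 per group. The deposited log2 values were made by the authors with RMA, per the labels, and the submitters' processing notes also name limma, without versions. RMA adjusts the arrays' distributions towards each other, yet AllStar replicate 3 kept an interquartile range of 2.99, against 3.41 to 3.53. The part of normalisation in its shifts was not tested. Of the 54613 probe sets that are not controls, the platform annotation assigns 41091 to a single gene, 1801 to several and 11721 to none.

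In limma 3.58.1 (R 4.3.3) a model with 3 groups was fitted to all 54613 probe sets, without a filter on low values, and moderated by eBayes. The contrasts were each mimic against AllStar, both together against AllStar, and Qmimic against Dmimic. A probe set was called at an adjusted p under 0.05 (Benjamini-Hochberg, over all probe sets) and at least 1.5-fold. Each fit was run with 9 arrays and without AllStar replicate 3. For a list gene the probe set of highest mean was used. The named genes are all members, list genes called in either fit, and otherwise, from each list, the 3 of smallest adjusted p for both mimics without AllStar replicate 3. The members and lists were chosen with earlier results of these data known. The fit was tested on simulated data. Precision is limited by the number of arrays, which have no read depth. A log2 change against AllStar had a median 95% half-width of 0.26, and of 0.19 without AllStar replicate 3. The alternatives were arrays left out, a replicate block, other fold thresholds, a level filter, other normalisations, array weights, a fit of the compared groups alone, and robust moderation with a trend.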

Additional observations from a re-analysis of the deposited data

Results flagged for a closer look

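GSK3B 226191_at differed between the mimics. Qmimic minus Dmimic was -0.84 on the log2 scale without AllStar replicate 3 (adjusted p 0.00216 in limma), with all 3 Qmimic arrays, at 7.75, 7.90 and 7.99, below all 3 Dmimic arrays, at 8.69, 8.75 and 8.70. With all 9 arrays the difference was the same size, since both mimic groups are complete in both fits, and its adjusted p was 0.333. The tested difference between the mimics is what drew attention to it. Of the gene's other 4 probe sets in the fit without AllStar replicate 3, 226183_at differed by -0.76 (adjusted p 0.0134 in limma) and was called, and 242336_at differed by -0.58 (adjusted p 0.0362), under 1.5-fold. GSK3B 209945_s_at differed by -0.10 (adjusted p 0.750) and 240562_at by 0.01 (adjusted p 0.973).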

How the results depend on the processing

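The count of family probe sets called was 0 in every comparison with all 9 arrays and without array weights. Leaving out single arrays gave counts of 0 to 1 for Dmimic and for both mimics together, where leaving out AllStar replicate 3 gave 1, and 0 for Qmimic and for Qmimic versus Dmimic. With AllStar replicate 3 and 1 further array left out, the counts were 0 to 1 for Qmimic, Dmimic and both together: each of the 6 mimic arrays so left out gave 1 for Dmimic and for both together, and Dmimic replicate 3 gave 1 for Qmimic. Leaving out a further AllStar array gave 0. Array weights, whose estimation stopped short of its convergence tolerance, gave 1 for Qmimic, for Dmimic and for both together. The 1 was BCL2 203685_at each time, and the cause was not tested. With the replicate block the count was 0 in all comparisons, and 0 also with the block and without AllStar replicate 3, where BCL2 203685_at with Dmimic had an adjusted p of 0.0830 in limma. The residuals of arrays with the same replicate number correlated above 0.1 in 3 of 9 pairs (range -0.28 to 0.22). This cannot show whether the numbers pair the arrays. Arrays with different numbers were not compared, and the AllStar residuals were taken with replicate 3 included. No fit of the compared groups alone was made for both mimics together. Single probe sets did change sign: leaving out AllStar replicate 3 turned the sign for 12 of the 29 with Qmimic, 11 with Dmimic and 9 with both together, none of them called in either fit. The level filter kept 22 of the 29 probe sets and left out BCL2 203685_at. Signal limits BCL2A1, whose probe set lay at percentile 3.48. BCL2L11 208536_s_at, MCL1 227175_at and BCL2L11 222343_at were also low, at percentiles 15.8, 21.4 and 33.7.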
